A study of Gallus gallus with 6 samples.

Results

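The liver of laying hens was described from 3 libraries, L30-1, L30-2 and L30-3, which are all the samples labelled with an age of 30 weeks among the 6 in the series. They are females of a strain of Lushi chicken (Lushi green shell chicken), a Chinese domestic breed, each a separate bird killed in lay, and each gave 1 mRNA library from a piece of whole liver. The other 3 libraries (L20) came from juvenile females of the same breed aged 20 weeks, raised in the same way, and serve below only as a range set beside the laying hens. No agent was given and no gene was altered in either group. The birds were caged with free access to feed, so the time since a bird last fed or laid was not set by the design and is not given in the sources used here.

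The liver of a hen in lay makes the material of the egg yolk. Under estrogen it secretes vitellogenins and a small, specialised apolipoprotein of very low density lipoprotein, which the blood carries to the growing follicles, and it makes most of the fatty acids of the yolk, since in birds fat is synthesised mainly in the liver. The same cells secrete the common plasma proteins, whose levels can shift in the acute phase, the liver's secretory response to inflammation.

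The deposited table gave FPKM, which corrects for gene length and library size and so allows genes of different length to be compared, and a scaled count per gene. Expressed in units of 1 read, the scaled counts came to 21570437, 13764761 and 14272020 recovered reads on genes in L30-1, L30-2 and L30-3, and 14432374 to 21445919 in the L20 hens. Of 14078 entries, 12385 were above 0 in all 3 laying hens and 243 in none. Markers fitted the labelled tissue: 16 of the 17 hepatocyte markers found in the table had a mean of 1 FPKM or more, and their summed FPKM was 31658, 42631 and 43421 in the 3 laying hens, against 50793 to 55635 in the L20 hens. The summed FPKM of the erythrocyte markers was 280.3, 148.4 and 110.9 in L30-1, L30-2 and L30-3, and that of the pancreas markers was 97.5, 119.2 and 90.0, nearly all of it amylase (AMY1A). The hepatocyte sum includes FGA, FGB and FGG, the fibrinogen chains of the acute phase list, so their shifts enter it. From L30-2 to L30-3 FGA, FGB and FGG each rose by more than the sum did, so the other markers together fell. FGB alone had 3393, 5217 and 10295 FPKM in L30-1, L30-2 and L30-3, and 11457 to 19489 FPKM in the L20 hens. In a piece of whole liver, fewer cells of a type, less RNA per cell and a shift in single markers cannot be told apart.

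Genes of plasma proteins and of yolk formation held the largest shares of reads of any list. When each gene was counted in 1 class only, 4 yolk precursor genes held 20.2%, 19.2% and 16.8% of recovered reads in L30-1, L30-2 and L30-3 (mean 18.7% ± 1.72, SD, n = 3), against 0.322% to 0.615% in the L20 hens. The 76 plasma protein genes held 18.6%, 20.9% and 25.7% (21.8% ± 3.60), against 34.7% to 39.6% in the L20 hens. L30-3 thus had the smallest yolk share and the largest plasma protein share of the 3. The 17 entries of the mitochondrial genome took 6.77% ± 0.308, and genes with no name took 5.60% ± 0.447. The 10 nuclear genes with most reads held 36.5%, 37.2% and 38.9% of nuclear reads in the 3 laying hens.

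Smaller classes differed in how closely their summed shares agreed among hens. Cytosolic ribosomal proteins, the protein part of the ribosome, held 1.32%, 1.28% and 1.39% of reads, and the cytochrome P450 and conjugation genes, which modify steroids and foreign compounds, 0.736%, 0.739% and 0.744%. This holds for the sum and not for each member, since CYP3A7 had 704, 899 and 1625 FPKM in L30-1, L30-2 and L30-3. The genes of fatty acid synthesis held 2.44%, 1.83% and 0.661%, against 0.516% to 0.657% in the L20 hens. As a sum L30-3 thus lay just above the L20 range, which did not hold for each member. Sterol synthesis genes held 1.05%, 0.622% and 0.412% in the laying hens, against 0.161% to 0.313% in the L20 hens. Fatty acid oxidation and ketogenesis genes ran the other way, at 0.557%, 0.778% and 1.01%, against 0.633% to 1.21% in the L20 hens, so that L30-1 lay below that range. Heat shock genes held 0.763% in L30-1, and 0.349% and 0.369% in L30-2 and L30-3. The L20 range was 0.451% to 1.61%, which holds L30-1 and lies above L30-2 and L30-3.

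**Figure D1:**
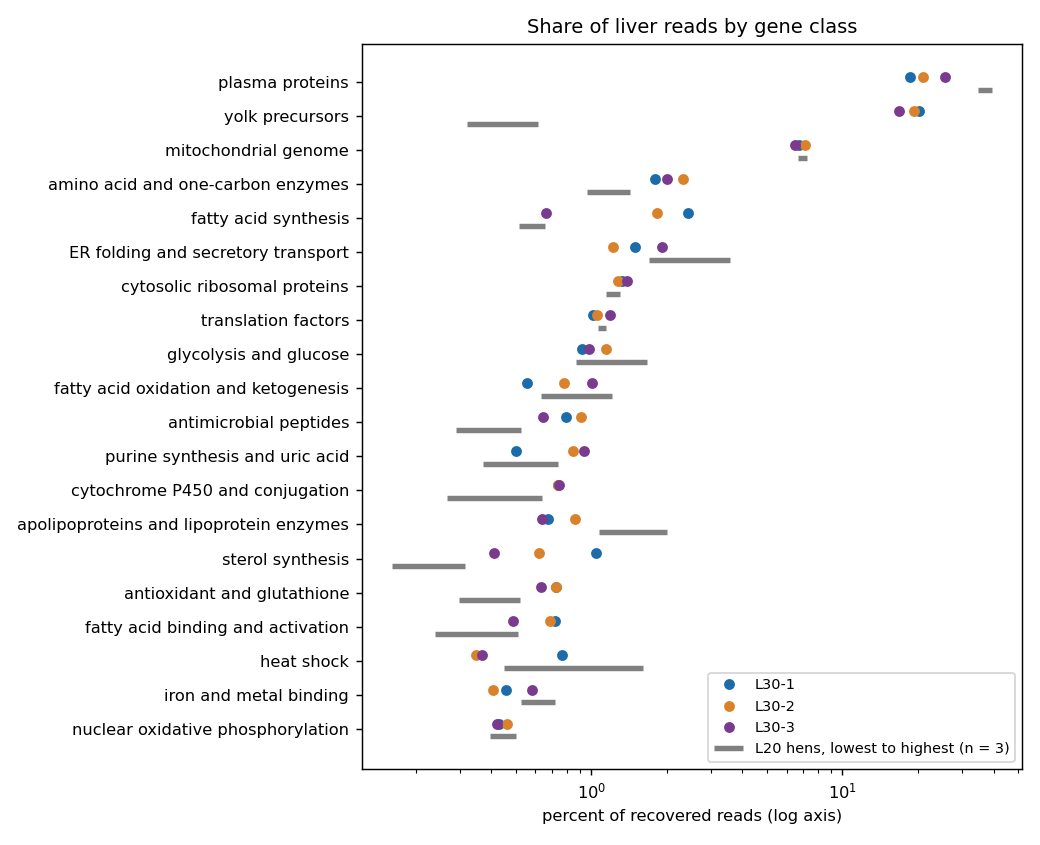
Percent of recovered reads held by 20 gene classes (log axis) in each laying hen (coloured points) with the range of the 3 L20 hens below it (grey line). Yolk precursors took 16.8% to 20.2% in laying hens. The points of fatty acid synthesis lie far apart while those of cytochrome P450 genes, as a sum over members that differ among hens, coincide.

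Ranked by mean FPKM over the 3 hens, the most abundant nuclear gene was APOVLDLII, the apolipoprotein of yolk-targeted lipoprotein (ENSGALG00000015134, chromosome 1, 82609205 to 82612227 in galGal4), with 36305, 38763 and 26044 FPKM in L30-1, L30-2 and L30-3. VTG2, the main vitellogenin, had 12265, 13916 and 11188 FPKM and lay on chromosome 8 (15416742 to 15437448). A second vitellogenin, VTG1, is listed in the table under the name TPRXL, and had 4631, 4644 and 4159 FPKM. APOB, the large structural apolipoprotein, had 1437, 1590 and 1164 FPKM. All 4 precursors were lowest in L30-3 and, in FPKM, highest in L30-2, although L30-1 was the highest for all 4 in recovered reads scaled to the nuclear total. Their CVs (SD over mean of FPKM) were 0.0617 to 0.2002, around the median of 0.149 over all genes measured.

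Proteins that travel to the yolk or the blood filled much of the rest of the ranking. ALB, serum albumin, had 13188, 16991 and 13972 FPKM in the 3 hens. The entry named LTF, transferrin by its description, had 5418, 5221 and 7395 FPKM. HPX, which binds heme, had 3969, 6518 and 5674 FPKM, and GC, the vitamin D binding protein, 3170, 3473 and 3413 FPKM. Among carriers of vitamins into yolk, RBP4 for retinol had 1879, 1787 and 1687 FPKM. The entry named RD, retbindin (RTBDN) by its description, was taken as riboflavin binding protein and had 1429, 1230 and 1279 FPKM. Both had CVs under 0.10 (0.0537 and 0.0790), and so did GC (0.0479). TTR, the thyroid hormone carrier that binds RBP4, had a CV of 0.542, with 3261 and 3584 FPKM in L30-1 and L30-2 and 989 FPKM in L30-3.

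Other leading genes bind lipid, iron or microbes. The entry named FABP1, described as the liver basic fatty acid binding protein (LBFABP), had 11302, 15433 and 8704 FPKM. A separate entry named LFABP, described as liver fatty acid binding protein 1 (FABP1), had 1597, 2459 and 2326 FPKM. GAL9, a beta-defensin, had 11079, 13964 and 9319 FPKM. The neighbouring beta-defensin gene GAL10 on chromosome 3 had 1486, 2693 and 1354 FPKM, in the same order of hens. FTH, the ferritin heavy chain that stores iron, had 4160, 3989 and 4309 FPKM with a CV of 0.0386. PSPH, a phosphatase of serine synthesis, had 3169, 6389 and 4194 FPKM. PIT 54, a chicken scavenger receptor protein that binds hemoglobin, had 2199, 3048 and 3373 FPKM.

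Some entries of high FPKM rested on few reads. Among the 25 first nuclear genes, gga-mir-1797 had 3313, 0 and 5185 FPKM on 1, 0 and 1 reads, and ENSGALG00000026592, with no name, 4319, 3236 and 2533 FPKM on 142, 62 and 57 reads. Of the 56 nuclear genes with a mean of 1000 FPKM or more, 8 had under 100 reads on average and 6 had at most 1 read in every hen. The most abundant genes with no name that rested on over 1000 reads were ENSGALG00000026742, with 2053, 2871 and 1924 FPKM, ENSGALG00000003512, with 1993, 2890 and 1789 FPKM, ENSGALG00000011287, with 976, 2246 and 1244 FPKM, and ENSGALG00000027227, with 1211, 1357 and 1015 FPKM. By their descriptions ENSGALG00000003512 is SPINK7 (putative), a Kazal-type peptidase inhibitor, and ENSGALG00000011287 a sulfotransferase, while the others are uncharacterized proteins. In FPKM all 4 were highest in L30-2.

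**Figure D2:**
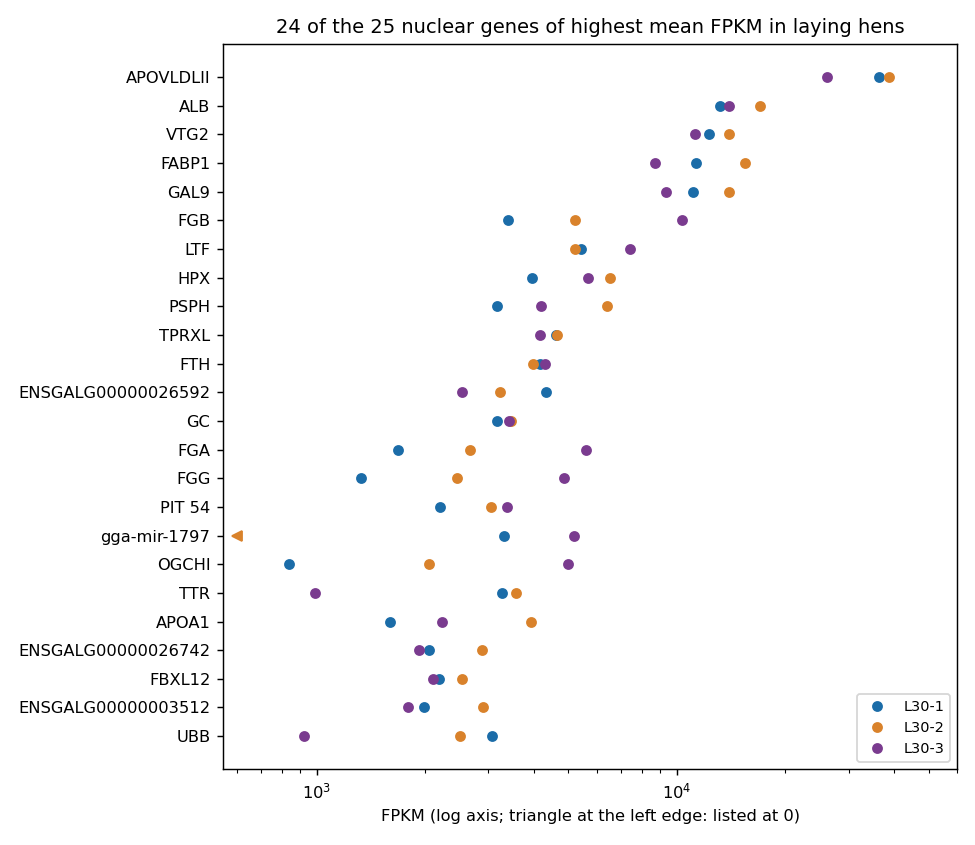
FPKM (log axis) in each laying hen of 24 of the 25 nuclear genes of highest mean. The 3 points of TPRXL (VTG1), FTH and GC nearly coincide, while FGA, FGB, FGG, OGCHI, TTR and UBB spread and the triangle marks gga-mir-1797, listed at 0 in L30-2.

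The spread among hens was measured over the 5645 nuclear genes with a mean of 5 FPKM or more. Their median CV was 0.149, with quartiles of 0.0869 and 0.260. Genes were counted as steady at a CV of 0.10 or less, which held for 1753 genes (31.1%), and as variable at a CV of 0.50 or more, which held for 452 (8.01%). Next to these limits, RPL23 (0.09997) was just steady and EPRS (0.10005) just not, while BST1 (0.5001) was just variable and U3 (0.4997) just not. CCDC75 entered with a mean of 5.004 FPKM and ENSGALG00000010722 stayed out with 4.9998 FPKM. Between pairs of hens, log2(FPKM + 1) differed by 1 or more for 324 genes (L30-1 and L30-2), 501 genes (L30-1 and L30-3) and 419 genes (L30-2 and L30-3).

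Lists of protein synthesis genes held more steady genes than the 31.1% over all. Among cytosolic ribosomal proteins 51 of 68 were steady (75%) and 0 variable, with a median CV of 0.0790. The 68 include RPS19BP1, described as a binding protein of a ribosomal protein (CV 0.123). They also include RPL7L1 (0.214) and RPL22L1 (0.188), described as like ribosomal proteins. Among mitochondrial ribosomal proteins 30 of 54 were steady (55.6%) and 0 variable (median 0.084). Translation factors had 17 steady (45.9%) and 0 variable of 37 (median 0.112), with EEF2, which moves the ribosome along the mRNA, at 306, 337 and 367 FPKM. Other lists had 0 variable genes with a share of steady genes nearer to that of all genes or below it. Nuclear genes of oxidative phosphorylation had 15 steady of 62 (24.2%, median CV 0.148). Antioxidant and glutathione genes had 11 steady of 29 (37.9%, median CV 0.167), among them PRDX6, a peroxide reductase, at 219, 236 and 243 FPKM and GCLM, a subunit of the first enzyme of glutathione synthesis, at 31.9, 32.0 and 31.2 FPKM.

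The steadiest single gene was DNAJB6, a co-chaperone, at 23.28, 23.31 and 23.24 FPKM (CV 0.00142, 1139 reads per hen on average). In the L20 hens its CV was 0.238. ASNA1 had 14.7, 14.8 and 14.7 FPKM, MAN2A1, a Golgi mannosidase, 21.2, 21.1 and 21.3 FPKM, and EIF2S1, a subunit of translation initiation factor 2, 21.8, 21.6 and 21.5 FPKM. TMEM41B, at 153.6, 151.7 and 152.2 FPKM, GOT1, the cytosolic aspartate aminotransferase, at 69.4, 68.6 and 68.4 FPKM, and RPL13, at 317.8, 319.8 and 314.0 FPKM, were the most abundant of the 15 steadiest. The remaining 8 were MAU2, PSMD4, ENSGALG00000005464, RAB5B, DHX30, CYFIP1, GPN1 and BRE, with means of 5.20 to 20.4 FPKM. These smallest CVs depend on the scale, since on recovered reads scaled to the nuclear total the CV was 0.0639 for DNAJB6 and 0.0595 to 0.0774 over all 15. The CV that counting of reads alone gives was 0.0127 to 0.0690 for these 15 genes, above the CV of each, so their order lies below counting error.

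Of the genes often used as references for quantitative PCR, 14 of 27 were steady (51.9%, against 31.1% over all genes; median CV 0.0967). TBP, the TATA-box binding protein, had 10.4, 9.33 and 9.26 FPKM, and PPIA, cyclophilin A, 439.9, 464.5 and 402.8 FPKM. GAPDH had 748.8, 922.6 and 718.5 FPKM (CV 0.138). Of the list, 2 members were variable (7.41%, against 8.01% over all genes). UBB, a polyubiquitin gene, had 3069, 2503 and 924 FPKM, and TFRC, the transferrin receptor, 19.2, 4.97 and 4.91 FPKM.

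**Figure D3:**
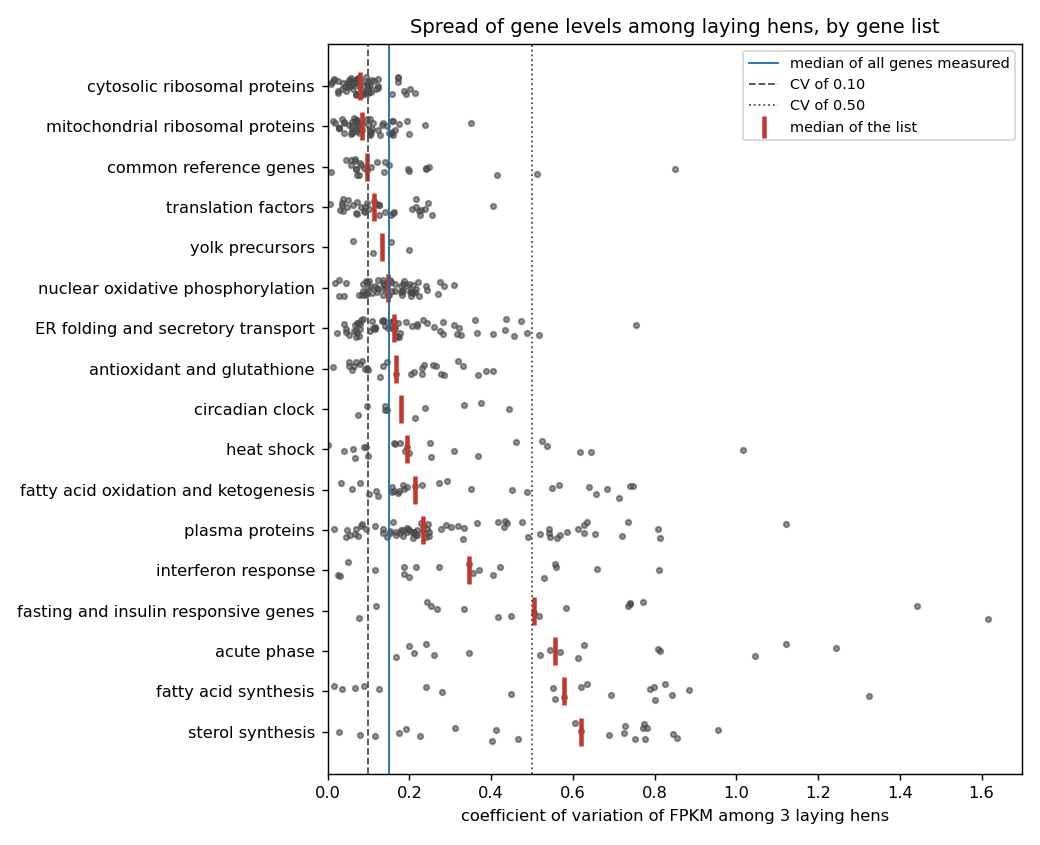
CV of FPKM among the 3 laying hens for each gene (grey points) of 17 lists, with the median of each list (red bar), the median of all 5645 genes (blue line, 0.149) and the limits of 0.10 and 0.50. Ribosomal proteins lie mostly left of 0.10, while the medians of the acute phase, fatty acid synthesis and sterol synthesis lists lie right of 0.50.

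Variable genes were frequent in several lists, among them those of fat, sterols and the acute phase. Against 8.01% over all genes, 13 of 23 sterol synthesis genes were variable (median CV 0.620), 13 of 21 fatty acid synthesis genes (0.578), 10 of 16 acute phase genes (0.555), 9 of 17 fasting and insulin responsive genes (0.504), 8 of 29 fatty acid oxidation genes (0.214) and 17 of 72 plasma protein genes (0.234). Among other lists, 5 of 10 apolipoprotein and lipoprotein enzyme genes, 5 of 10 antimicrobial peptide genes and 4 of 10 immediate early genes were variable. The fatty acid binding and metal lists each had 4 of 12, interferon response 5 of 19 and cytochrome P450 5 of 28 (median CV 0.234). Heat shock had 5 of 23, and purine synthesis and uric acid 3 of 15. The lists share members, and the acute phase list lies mostly within the plasma protein list. In each list the hens were then ranked gene by gene. Over all 5645 genes, L30-1 was the highest hen for 26.9% and the lowest for 38.2%, L30-2 the highest for 39.8% and the lowest for 25.3%, and L30-3 the highest for 33.3% and the lowest for 36.5%. These shares move with the scaling, and on recovered reads scaled to the nuclear total L30-1 was the highest hen for 2331 genes and L30-2 for 1188, so a list is read below against the shares in FPKM.

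In fatty acid synthesis L30-3 was the lowest hen for 15 of 21 genes. FASN, fatty acid synthase, had 587, 424 and 40.0 FPKM in L30-1, L30-2 and L30-3. SCD, the desaturase that makes oleate, had 1882, 1313 and 103 FPKM, ELOVL6, an elongase, 618, 1086 and 51.8 FPKM, and THRSP, a nuclear protein that promotes lipogenesis, 1812, 2578 and 108 FPKM. ME1, which supplies NADPH, had 111.3, 96.8 and 6.08 FPKM, and ACACA, which makes malonyl-CoA, 108.4, 113.6 and 23.4 FPKM. For these 6 genes both L30-1 and L30-2 lay well above L30-3. The pattern was not shared by the whole list: FADS1 (329, 307 and 288 FPKM), FADS6 (99.7, 101.8 and 106.9 FPKM), ELOVL1 and CIDEC were steady. LPIN1, a phosphatidate phosphatase, stood high in L30-2 alone, at 14.6, 124 and 8.46 FPKM.

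In sterol synthesis L30-1 was the highest hen for 21 of 23 genes and L30-3 the lowest for 18. SC4MOL had 900, 437 and 175 FPKM in L30-1, L30-2 and L30-3, CYP51A1 318.8, 129.0 and 63.9 FPKM, SQLE 177.7, 62.1 and 32.6 FPKM and FDFT1 203.0, 83.5 and 27.7 FPKM, all in the same order of hens. FDPS had 432, 111 and 74.1 FPKM, with a locus that overlaps another entry. HMGCS1 (437, 662 and 675 FPKM) ran against this order, and ACAT2 (126.3, 133.2 and 131.6 FPKM) was steady. The next genes are not members of the sterol list. SREBF1, listed as SREBP-1, a transcription factor of lipid synthesis in the fatty acid synthesis list, had 42.8, 15.4 and 9.455 FPKM. CYP7A1, the rate-limiting enzyme of bile acid synthesis, in the cytochrome P450 list, had 69.8, 61.7 and 1.68 FPKM.

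In the acute phase list L30-3 was the highest hen for 13 of 16 genes and L30-1 the lowest for 12. The 3 fibrinogen chains, which form the clot, lie side by side on chromosome 4 (19781103 to 19811032) and were in the same order in the 3 hens: FGB had 3393, 5217 and 10295 FPKM in L30-1, L30-2 and L30-3, FGA 1686, 2674 and 5606 FPKM and FGG 1329, 2449 and 4864 FPKM. OGCHI, ovoglycoprotein, had 841, 2048 and 4997 FPKM. SERPINA3, a protease inhibitor, had 95.7, 122 and 709 FPKM and SOCS3, which is induced by cytokines, 4.60, 3.16 and 21.5 FPKM. In the L20 hens FGB had 11457 to 19489 FPKM, OGCHI 8539 to 16053 FPKM and SERPINA3 1217 to 9138 FPKM, each range above L30-3. The entry named LTF, transferrin by its description, had 7395 FPKM in L30-3, within the L20 range of 7162 to 14476 FPKM. CP, the copper carrier ceruloplasmin, had 110, 186 and 334 FPKM and MBL2, a lectin of the complement pathway, 148, 194 and 386 FPKM. The other 3 members were HPX, given above, and the entry described as serum amyloid A (named HPS5 in the table), both highest in L30-2, and TMSB4X, thymosin beta 4, highest in L30-1. The serum amyloid A entry had 98.1, 1201 and 182 FPKM, and TMSB4X 516, 417 and 302 FPKM.

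Metallothioneins, small proteins that bind zinc and copper, were also highest in L30-3. MT4 had 97.0, 611 and 2591 FPKM on 954, 3339 and 16656 reads, and MT1, described in the table as MT3, had 26.6, 494 and 2797 FPKM on 7, 75 and 495 reads. In the L20 hens MT4 had 1435 to 3440 FPKM, a range that holds L30-3, and MT1 663 to 1266 FPKM, below L30-3. Among plasma proteins that were lowest in L30-3, AHSG, a fetuin that falls in the acute phase in mammals, had 1459, 1579 and 371 FPKM and FETUB, a related protein, 173.7, 85.8 and 43.9 FPKM. S100A9, a calcium-binding protein of granulocytes, had 5.52, 5.79 and 44.6 FPKM, against 59.5 to 185 FPKM in the L20 hens. The summed FPKM of the macrophage and granulocyte markers was 1043, 879 and 846 in L30-1, L30-2 and L30-3, so it was not highest in L30-3.

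In fatty acid oxidation and ketogenesis L30-1 was the lowest hen for 20 of 29 genes. L30-2 was the highest hen for 13 of them and L30-3 for 14, so the list had no common order of these hens. CPT1A, which admits fatty acids to the mitochondrion, had 12.2, 44.2 and 79.2 FPKM in L30-1, L30-2 and L30-3. HADHB, of the mitochondrial trifunctional protein, had 121, 255 and 482 FPKM, and EHHADH, a peroxisomal enzyme, 44.1, 67.0 and 161 FPKM. HADH (84.7, 79.5 and 82.7 FPKM) was steady. ACSL1, which activates fatty acids and belongs to the fatty acid binding list, had 20.2, 44.5 and 127 FPKM. ACSL5, of the same family and list, ran in the opposite order at 180, 101 and 45.4 FPKM.

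**Figure D4:**
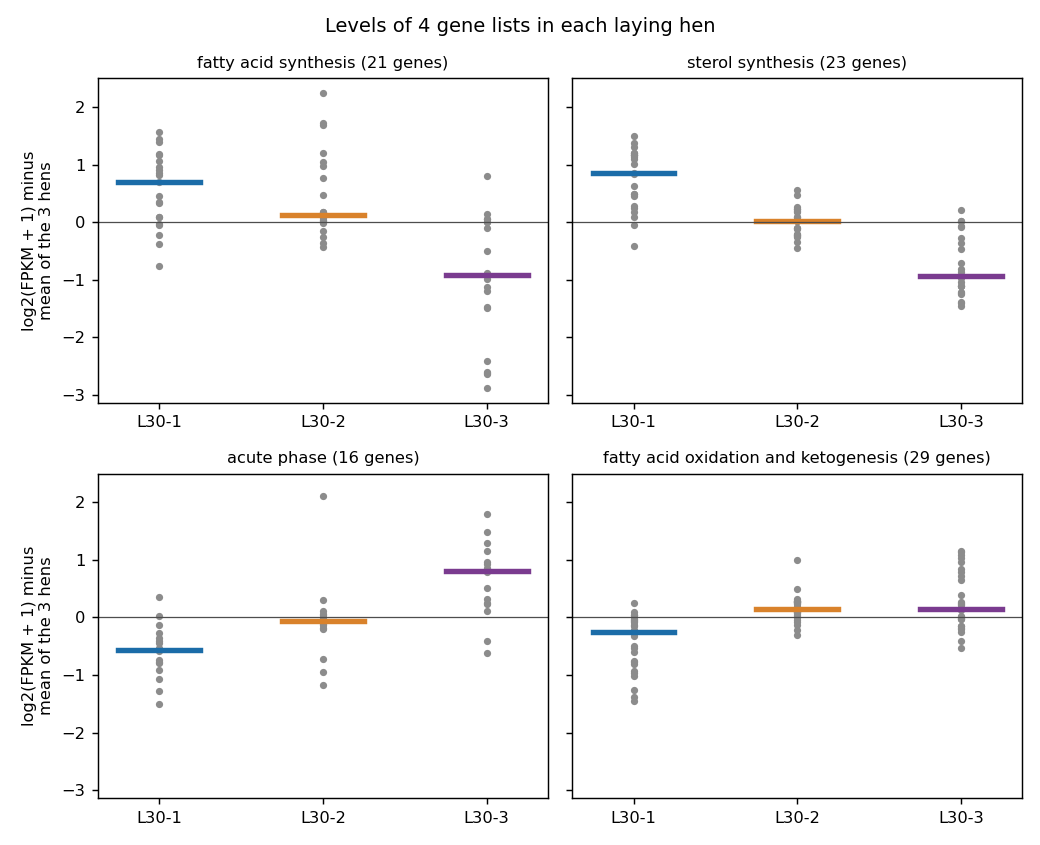
Log2(FPKM + 1) of each gene minus its mean over the 3 laying hens (grey points), with the median of the list in each hen (coloured bars). The medians were 0.70, 0.13 and -0.92 in L30-1, L30-2 and L30-3 for fatty acid synthesis, 0.85, 0.02 and -0.93 for sterol synthesis, -0.56, -0.05 and 0.80 for the acute phase, and -0.25, 0.14 and 0.14 for fatty acid oxidation.

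Among genes that respond to fasting and insulin, L30-2 was the highest hen for 9 of 17 (52.9%, against 39.8% over all genes). L30-1 was the lowest hen for 10 of 17 (58.8%, against 38.2% over all genes). PCK1, the soluble form of an enzyme of gluconeogenesis, had 1.26, 33.9 and 0.328 FPKM in L30-1, L30-2 and L30-3 on 100, 1527 and 17 reads. KLF15, a transcription factor of gluconeogenesis, had 11.3, 43.1 and 14.0 FPKM and IGFBP1, which binds insulin-like growth factors, 4.08, 21.5 and 10.4 FPKM. PDK4, which restrains pyruvate oxidation, was low in L30-1 alone, at 9.40, 85.8 and 64.4 FPKM. ANGPTL4, a lipoprotein lipase inhibitor, was high in L30-1 alone, at 39.7, 2.99 and 2.01 FPKM. Outside this list, HKDC1, a hexokinase family member, had 113.1, 33.6 and 0.185 FPKM on 21880, 3631 and 23 reads.

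L30-1 was the highest hen for 17 of 23 heat shock genes and the lowest for 0. Of these 23 genes, 5 were variable (21.7%, against 8.01% over all genes) and 7 steady (30.4%, against 31.1%). HSP70 had 172.5, 30.5 and 35.2 FPKM in L30-1, L30-2 and L30-3, HSP90AA1 623.5, 238.5 and 229.4 FPKM and HSPA8 455.0, 217.6 and 173.2 FPKM. The chaperones of the endoplasmic reticulum did not share this order, and 39 of 63 genes of folding and secretory transport were highest in L30-3. Among these, HSPA5 had 474, 311 and 755 FPKM and HERPUD1 19.8, 13.3 and 54.2 FPKM. In this list 27.0% were steady, against 31.1% over all genes, and 3.17% variable, against 8.01%, with a median CV of 0.162, against 0.149.

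Among the 25 most variable genes with 20 or more reads on average, L30-1 stood highest for UCH-L1 (21.97, 2.98 and 2.19 FPKM), PPP1R3B, a regulator of glycogen synthesis (69.1, 14.1 and 7.58 FPKM), and CIP1, the cell cycle inhibitor p21 (20.9, 3.59 and 2.94 FPKM). L30-2 stood highest for TRPM5 (0.830, 20.6 and 1.14 FPKM), and L30-3 for CAPSL (5.01, 2.51 and 43.2 FPKM), SLC6A14 (3.22, 0.692 and 16.9 FPKM) and NOXO1 (1.80, 4.78 and 22.7 FPKM). BUB1, of the mitotic checkpoint, had 21.7, 9.27 and 0.870 FPKM, while the only other cycling marker with a mean of 5 FPKM, PCNA, had 24.5, 22.3 and 19.6 FPKM.

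By chromosome, 6 of the 21 genes measured on chromosome 16 were variable (28.6%, against 8.01% over all). This chromosome carries the chicken major histocompatibility complex, whose genes exist in near-identical copies. Whether reads were split between copies was not tested. The gene of highest CV among those with 20 or more reads, ENSGALG00000000162 (16, 79574 to 96270, a locus shared by 3 entries), had 16.7, 0 and 0.781 FPKM on 362, 0 and 11 reads. An entry named B-G (ENSGALG00000024357, 335306 to 346680) had 19.0, 4.44 and 2.28 FPKM, and BG2 had 27.7, 48.1 and 3.73 FPKM.

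For each variable gene, the hen whose log2(FPKM + 1) lay farthest from the middle value was then taken. This was L30-3 for 204 of 452 genes (45.1%), high for 91 and low for 113. It was L30-1 for 146 (32.3%), high for 94 and low for 52, and L30-2 for 102 (22.6%), high for 71 and low for 31. Over all 5645 genes the shares were 36.2% for L30-3, 31.5% for L30-1 and 32.3% for L30-2. By this count no single hen stood apart for most of the variable genes. The count does not measure how many genes depend on 1 hen. With L30-3 left out, 217 of the 452 were still variable, against 276 without L30-1 and 332 without L30-2.

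**Figure D5:**
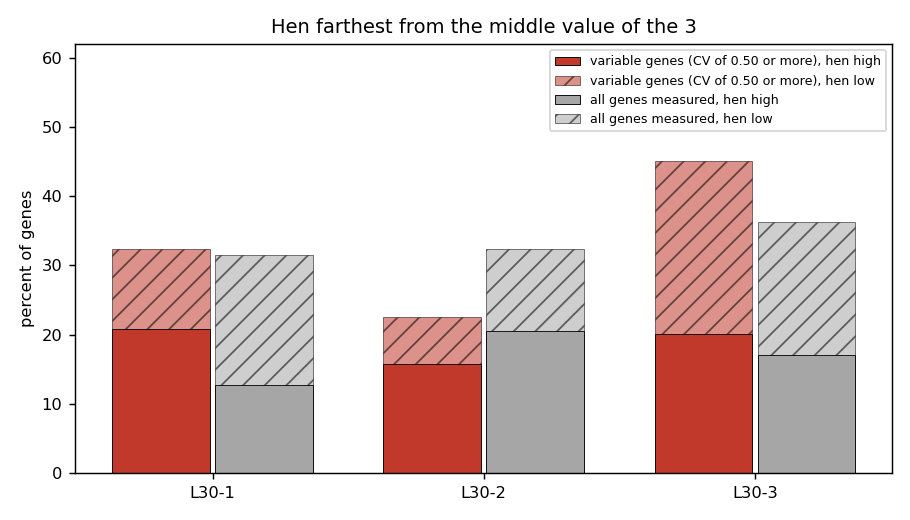
Percent of genes for which each laying hen lay farthest from the middle value, for the 452 variable genes (red) and all 5645 genes (grey), split into hen high (plain) and hen low (hatched). L30-3 reaches 45.1% of variable genes and 36.2% of all genes.

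The CV of the same genes was also taken among the L20 hens. Among genes with a mean of 5 FPKM or more in both groups, those variable in laying hens had a median CV of 0.370 in L20 hens, against 0.140 over all 5243 genes, and 135 of 357 (37.8%) reached 0.50 in L20 hens, against 5.26% over all. Genes steady in laying hens had a median CV of 0.106 in L20 hens. Across genes, which are not independent replicates, Spearman's rho of both CVs was 0.391 (5243 genes), and 0.378 for the 5008 genes with 100 or more reads. In laying hens 13.1% of variable genes had under 20 reads on average, against 1.24% of all genes, while the median was 503.5 reads for variable genes and 572.3 reads for all. The share of variable genes was 6.14% at 5 to 10 FPKM and 32.1% (18 of 56) at 1000 FPKM or more. These 18 include the 6 entries with at most 1 read in every hen, whose CVs of 0.875 to 1.73 rest on single reads.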

How the data were processed

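Liver mRNA libraries of 3 laying hens (L30, 30 weeks) and 3 juvenile hens (L20, 20 weeks) were used, 1 per bird. The authors mapped reads to galGal4 with TopHat2 2.0.9 and deposited FPKM values (Cufflinks and Cuffdiff). They also deposited scaled counts, a signal that equals whole reads divided by 1 factor per library. Reads were recovered by dividing by the value of 1 read, and 99.9% of low values per laying hen were whole within 0.1.

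All results are descriptions with no test. The CV is SD over mean of FPKM (n = 3) over nuclear genes with a mean of 5 FPKM or more. Named genes were the 25 nuclear genes of highest mean FPKM, the 15 of lowest and 25 of highest CV with 20 or more reads, leading, steady and variable list members, and 5 genes with no name. Some genes are not reported here. GAL10, LFABP, BUB1, PCNA, BG2 and the genes at the limits were named after their values were seen, as were some list members. Members and lists were chosen with earlier results of these data known. List symbols were matched by name, description or, for 7 matches, a hand-made alias. Loci are those of the table, and overlapping genes can share one. The CV computation was run on simulated read counts of known CV, which did not test the steady limit, FPKM or the list and hen counts. Python 3.11.15, pandas 2.3.3, numpy 2.4.6, scipy 1.17.1 and matplotlib 3.10.9 were used.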

Additional observations from a re-analysis of the deposited data

How the results depend on the processing

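Leaving out each laying hen in turn gave mean read shares of 18.04% to 19.7% for yolk precursors, 19.8% to 23.3% for plasma proteins, 6.60% to 6.91% for the mitochondrial genome and 1.30% to 1.35% for cytosolic ribosomal proteins. It kept 22 to 24 of the 25 most abundant nuclear genes and gave 320 to 495 variable genes and 2277 to 2455 steady genes. Of the 452 variable genes 217 to 332 stayed variable, and of the 1753 steady genes 1462 to 1485 stayed steady. These CVs rest on fewer hens than the main ones, so the totals are not strictly alike. As shares of summed nuclear FPKM, yolk precursors took 12.2%, plasma proteins 15.97% and cytosolic ribosomal proteins 5.56%, since FPKM divides by length; over nuclear reads the ribosomal share was 1.43%. A minimum mean of 1 FPKM gave 828 variable genes, and one of 20 FPKM gave 233 variable and 578 steady genes, from 9542 and 2069 genes. Ranking by reads kept 17 of the 25 most abundant genes. Recovered reads scaled to the nuclear total gave 455 variable genes, 427 of them shared with FPKM, and 1661 steady genes, 1215 of them shared. This scale moved all genes by a median log2 of 0.08, -0.11 and 0.03 in L30-1, L30-2 and L30-3 relative to FPKM. Over all genes L30-2 was then the highest hen for 1188 in place of 2247. L30-1 was still the highest hen for 21 sterol synthesis genes, and L30-3 for 13 acute phase genes. L30-3 was the lowest hen for 14 fatty acid synthesis genes in place of 15. L30-1 was the lowest hen for 19 fatty acid oxidation genes in place of 20. Removing the counting part left 401 variable genes, and leaving out entries that share a locus, chosen after seeing the data, 376. With variability set at a CV of 0.80, L30-1 and L30-3 each stood apart for 36.5% of 137 genes. No paired analysis was possible because every result is a description with no test, and L20 and L30 hens of the same number are different birds. With 3 hens a CV is imprecise, and genes of few reads carry counting error.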
